A study of Homo sapiens with 4 samples.

Results

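The nuclear genes for the subunits of respiratory complex I were followed in A2780 cells given GD-07. They were chosen by symbol: NDUFA, NDUFB, NDUFC, NDUFS or NDUFV followed by a number (with or without an L suffix), plus NDUFAB1, with assembly factors and pseudogenes left out. The choice took 39 of the 35371 gene symbols in the deposited table. A2780 is an established human ovarian cancer cell line, here grown as a monolayer in DMEM with serum, and the series text calls GD-07 a small-molecule inhibitor of MYC. Polyadenylated RNA was sequenced from 2 control libraries and 2 GD-07 libraries. The controls carry the treatment label none, whereas the series text names a vehicle, and neither the dose nor the time is given. Values are TPM, transcript abundance corrected for length and scaled within each library (the deposited columns sum to between 912781 and 918646), so the depth behind them is unknown and they are relative to the other transcripts of the library.

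Complex I takes electrons from NADH in the mitochondrial matrix, passes them through flavin and iron-sulfur clusters to ubiquinone, and pumps protons across the inner membrane. It is L-shaped. The matrix arm holds the N module, which oxidizes NADH, and the Q module, where ubiquinone is reduced. The membrane arm, with a proximal and a distal part, carries the proton pumps, whose central proteins are encoded by mitochondrial DNA. A small set of nuclear subunits forms the catalytic core in the matrix arm, and the others are accessory subunits that surround it.

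GENCODE 29 on GRCh38 annotates all 39 as protein-coding genes. All 39 also had a mean of at least 1 TPM and were tested. The control pair correlated at r = 0.993 and the GD-07 pair at r = 0.982 across the 13063 genes tested, on log2(TPM + 1). GD-07 replicate 2 stood apart, with 6.52% of its TPM in mitochondrially encoded transcripts, against 2.52% to 4.36% in the other libraries, and 4.25% in its most abundant entry, against 0.831% to 1.16%. Epithelial and ovarian carcinoma markers were low: KRT18 had the highest mean at 4.91 TPM, PAX8 and MUC16 were below 1 TPM in every library, and WT1 was listed at 0 in 3 libraries. The leukocyte and endothelial lists each summed to between 0.333 and 1.47 TPM in the 4 libraries, and COL1A1 was the most abundant of the fibroblast list at 17.9 to 39.0 TPM. Nothing in the labels ties the replicates to separate cultures, so the spread that p-values rest on may be technical. In bulk RNA, fewer cells of a kind and less of an mRNA per cell cannot be told apart.

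None of the 39 subunits passed limma's test of GD-07 against control (Benjamini-Hochberg adjusted p under 0.05), where 5.21% of all genes tested passed, 2.02% as higher and 3.19% as lower. At an unadjusted limma p under 0.05 there were 9 subunits, 7 higher and 2 lower with GD-07, where the shares over all genes were 10.1% and 14.7%. The median log2 fold change over the subunits was 0.08, beside -0.04 over all genes tested. It was above 0 for 24 of the 39, against 46.2% of all genes. Leaving out control replicate 1 gave a subunit median of -0.01. Leaving out a GD-07 library gave -0.047 (replicate 1 left out) or 0.21 (replicate 2 left out). In 15 of the 39 the difference between group means was larger than the wider gap between replicates, which held for 43.3% of all genes.

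**Figure D1:**
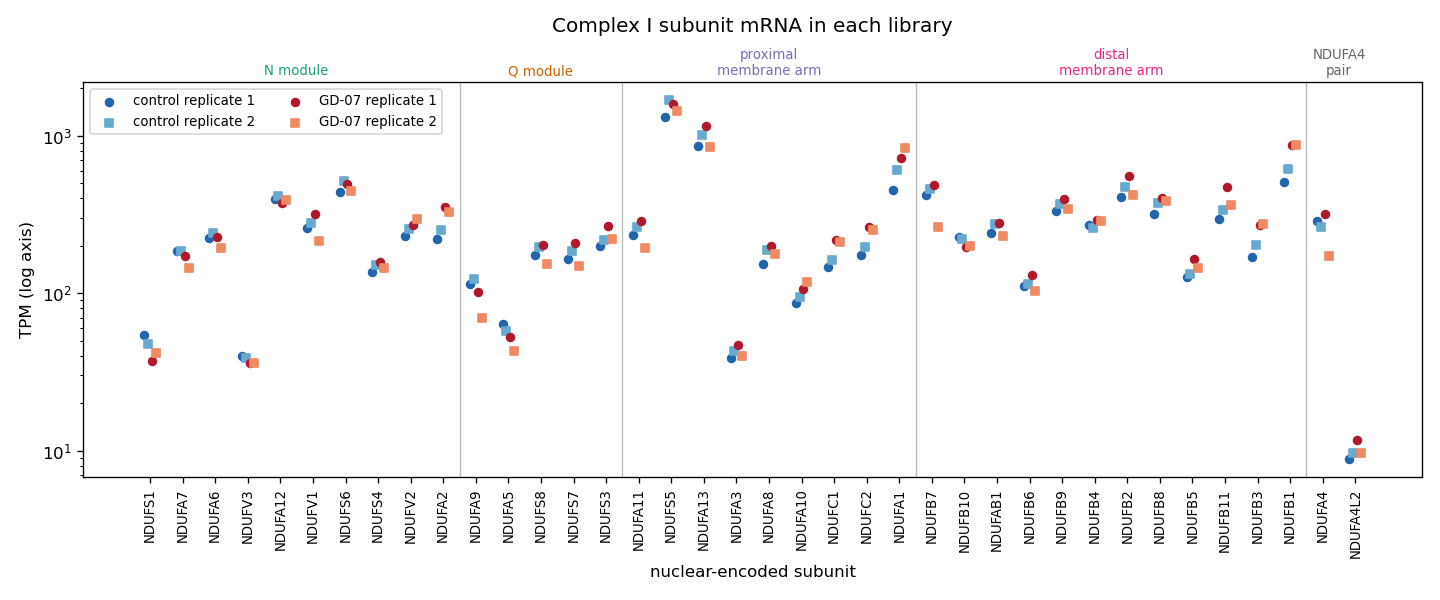
TPM (log axis) of 38 nuclear-encoded subunits in each of the 4 libraries, ordered by place in the complex and then by fold change; each point is 1 library. NDUFS5 is highest in every library and NDUFA4L2 lowest.

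The mRNAs spanned a wide range of levels although they encode parts of 1 complex. NDUFS5, a small subunit of the proximal membrane arm that faces the intermembrane space, was the most abundant, at 1321 and 1676 TPM in control cells and 1592 and 1440.3 TPM with GD-07. It made up 12.5% to 14.5% of the summed TPM of the 39 genes. NDUFA13, also known as GRIM19, followed at 861 and 1009.7 TPM in control cells and 1148 and 847 TPM with GD-07. In both genes the groups overlapped. The median member, NDUFS3, had a mean of 225 TPM over the 4 libraries. At the low end, NDUFA3 had a mean of 41.9 TPM, NDUFV3 of 37.7 TPM and NDUFA4L2 of 9.93 TPM. The summed TPM of the 39 genes was 10102 and 11546 in the controls and 12767 and 11118 with GD-07, so GD-07 replicate 2 lay between the controls. The mean was 10824 ± 1021 in the controls and 11943 ± 1166 with GD-07 (SD, n = 2 each). A two-sided exact permutation test gave p = 0.667, where 2 libraries against 2 cannot go below 0.333.

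In the catalytic core, the groups did not overlap in NDUFS1, NDUFV2 and NDUFS3 and overlapped in NDUFV1, NDUFS7 and NDUFS8. NDUFS1, the largest subunit and a carrier of iron-sulfur clusters in the N module, was at 54.2 and 47.7 TPM in control cells and 37.1 and 41.4 TPM with GD-07. The groups did not overlap, and the log2 fold change was -0.37 ± 0.15 (limma adjusted p = 0.183). NDUFV2, an iron-sulfur subunit of the N module, was at 231 and 256 TPM in control cells and 273 and 298 TPM with GD-07, again without overlap (0.23 ± 0.15, limma adjusted p = 0.37). NDUFS3, a structural core subunit of the Q module, was at 198 and 216 TPM against 266 and 219.9 TPM, with GD-07 replicate 2 only just above the controls. NDUFV1, which binds NADH and the flavin, was at 261 and 277 TPM in control cells and 319 and 213 TPM with GD-07. One GD-07 library lay above both controls and the other below both. NDUFS7, which carries the last iron-sulfur cluster before ubiquinone, followed the same pattern, at 164 and 186 TPM against 207 and 149.6 TPM. So did NDUFS8, another iron-sulfur subunit, at 176 and 197 TPM against 201 and 154 TPM.

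**Figure D2:**
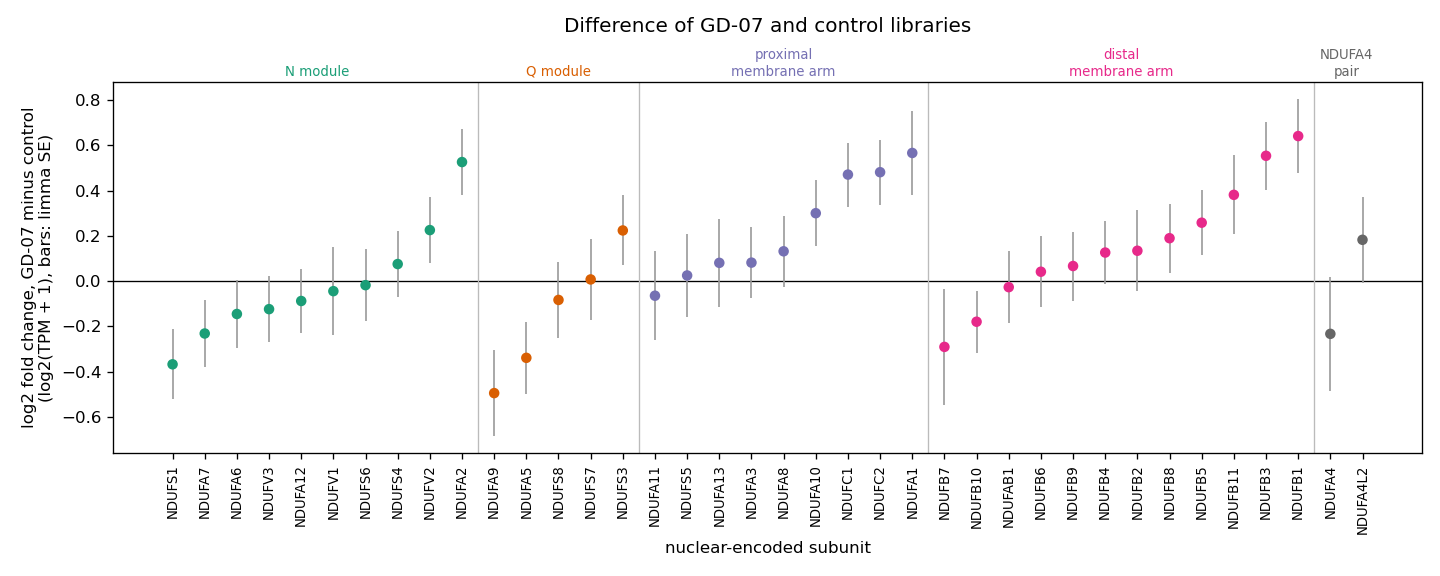
Log2 fold change of GD-07 minus control on log2(TPM + 1) for 38 subunits, by place in the complex; bars are limma's standard errors from 2 libraries a group. Membrane arm subunits lie above 0 in 17 of 21 cases, and no subunit passed the test.

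Membrane arm subunits lay above both controls more often than all genes did, whereas the matrix arm counts lay near the shares over all genes. This was described and not tested. Of the 21 membrane arm subunits, 10 had both GD-07 libraries above both controls and 1 had both below. Of the 16 matrix arm subunits, 4 had both above and 6 had both below. Over all genes tested, the shares were 25.3% above and 30.5% below. The median log2 fold change was 0.13 in the proximal and 0.13 in the distal membrane arm. It was -0.07 in the N module and -0.04 in the Q module, beside -0.04 over all genes tested. The N and Q module medians were 0.015 and 0.05 under quantile normalization, which moved the median of all genes to 0.01. They were 0.016 and 0.17 without GD-07 replicate 2. The Q module median was -0.25 when GD-07 replicate 1 was left out, and the membrane arm medians were 0.01 (proximal) and 0.05 (distal) without control replicate 1.

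In the proximal membrane arm, 8 of 9 members had log2 fold changes above 0. NDUFA1, a small X-encoded membrane subunit needed for assembly, was at 454 and 604 TPM in control cells and 718 and 839 TPM with GD-07. Its groups did not overlap, and the log2 fold change was 0.57 ± 0.18 (limma adjusted p = 0.102). Exons of NDUFA1 share 341 bases with RNF113A on the other strand, and whether the authors' counting used strand is not given in the sources used here. NDUFC1 and NDUFC2, small subunits that sit beside the mitochondrially encoded ND2, gave narrow groups. NDUFC1 was at 147 and 161 TPM in control cells and 217 and 210.2 TPM with GD-07. NDUFC2 was at 174 and 196 TPM in control cells and 265 and 252 TPM with GD-07. Their log2 fold changes were 0.47 ± 0.14 and 0.48 ± 0.14, each with a limma adjusted p near 0.083, the value of NDUFC1 being 0.0832 and that of NDUFC2 0.0828. A separate row for the read-through gene NDUFC2-KCTD14, which shares exons with NDUFC2, held 1.78 to 3.99 TPM. NDUFA10, which resembles a nucleoside kinase, had its groups apart as well (0.30 ± 0.14, limma adjusted p = 0.234). The groups overlapped in NDUFA3, NDUFA8, NDUFA11, NDUFA13 and NDUFS5.

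In the distal membrane arm, 9 of 12 members had log2 fold changes above 0. NDUFB1, one of the smallest subunits, was at 507 and 615 TPM in control cells and 876 and 867 TPM with GD-07. It had the smallest p of the 39 (log2 fold change 0.64 ± 0.16, limma adjusted p = 0.054), and the gene occupies chr14:92116122-92121917 (minus strand, GRCh38). NDUFB3 was at 169.8 and 202 TPM in control cells and 269.7 and 276 TPM with GD-07 (0.55 ± 0.15, limma adjusted p = 0.0647). NDUFB11, another X-encoded membrane subunit, was at 297 and 339 TPM against 474 and 361 TPM. The groups of these 3 genes did not overlap, and the same held for NDUFB4, NDUFB5 and NDUFB8, whose log2 fold changes were 0.13 to 0.26. NDUFB10, a subunit on the intermembrane side, was the 1 member of this arm with both GD-07 libraries below the controls, at 226 and 222 TPM against 196 and 199 TPM. NDUFB7, also on the intermembrane side, was at 417 and 459 TPM in control cells and 488 and 262 TPM with GD-07. GD-07 replicate 1 was thus its highest library and GD-07 replicate 2 its lowest. NDUFAB1, the mitochondrial acyl carrier protein, which also serves lipoic acid synthesis, was at 242 and 274 TPM against 278 and 229.7 TPM (-0.03 ± 0.16). The groups also overlapped in NDUFB2, NDUFB6 and NDUFB9.

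Among the accessory subunits of the matrix arm, NDUFA2 went the other way from most of its neighbours. This small N module protein with a thioredoxin-like fold was at 222 and 251 TPM in control cells and 352 and 329 TPM with GD-07, without overlap (log2 fold change 0.53 ± 0.15, limma adjusted p = 0.0696). NDUFA9, at the junction of the Q module and the membrane, was at 114 and 123 TPM in control cells and 101 and 69.1 TPM with GD-07. Its groups did not overlap, and the log2 fold change of -0.49 ± 0.19 was the lowest of the 39 (limma adjusted p = 0.15). NDUFA5, which binds the side of the Q module, was at 63.4 and 57.5 TPM against 52.3 and 43.1 TPM (-0.34 ± 0.16, limma adjusted p = 0.224). NDUFA7, NDUFA12 and NDUFV3 of the N module also had both GD-07 libraries below both controls, with log2 fold changes of -0.23, -0.09 and -0.12. In NDUFA6, NDUFS4 and NDUFS6 the groups overlapped.

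NDUFA4 was first described as a complex I subunit and is now assigned to complex IV. It was at 285 and 264 TPM in control cells and 317 and 172 TPM with GD-07, a replicate gap like that of NDUFB7 (-0.23 ± 0.25, limma adjusted p = 0.608). NDUFA4L2, its hypoxia-inducible paralog, was at 8.86 and 9.59 TPM in control cells and 11.6 and 9.67 TPM with GD-07 (0.18 ± 0.19, limma adjusted p = 0.595). The second GD-07 value was just above the higher control. Without these 2 genes the median log2 fold change of the remaining 37 was again 0.08.

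Calls appeared among the subunits when either GD-07 library was left out. Without GD-07 replicate 2, 7 of the 39 passed in limma as higher and none as lower, where 2.92% and 5.15% of all genes did. Without GD-07 replicate 1, 7 passed as higher and 3 as lower, where the shares over all genes were 6.69% and 10.3%. NDUFA2, NDUFB1, NDUFB3, NDUFC1 and NDUFC2 had positive log2 fold changes in both fits. These were 0.49 to 0.65 without GD-07 replicate 2 and 0.45 to 0.63 without GD-07 replicate 1. The 3 lower were NDUFA4 (-0.67), NDUFA9 (-0.77) and NDUFB7 (-0.74). These fits keep 1 GD-07 library and take the residual spread from the same control pair, so they are not independent of each other. Without control replicate 1 none passed (2.37% of all genes), and without control replicate 2 there was 1 (5.53% of all genes). With a minimum mean of 5 TPM 3 passed, NDUFB1 and NDUFB3 among them (9.19% of the genes then tested), and NDUFA2 and NDUFB1 passed under quantile normalization (5.96% of all genes).

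**Figure D3:**
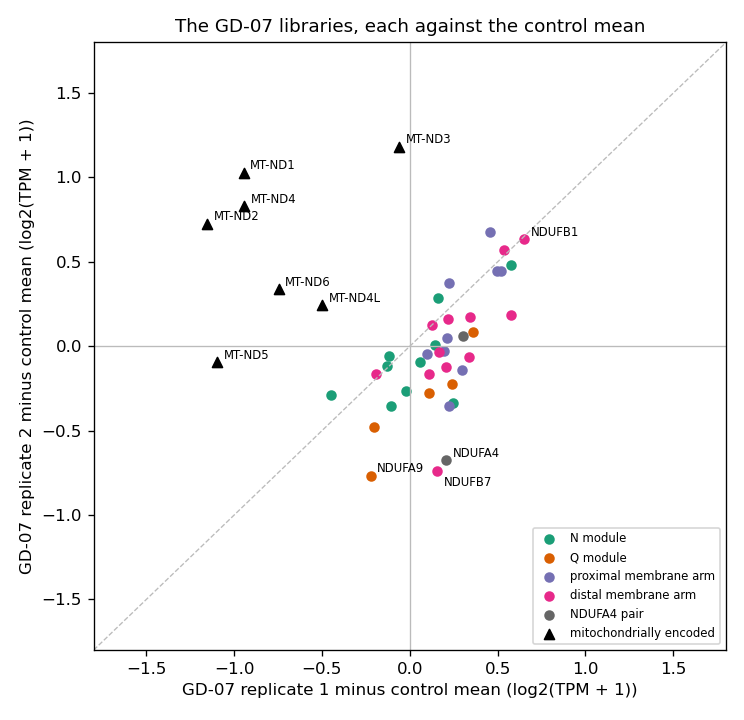
Each GD-07 library minus the control mean on log2(TPM + 1), replicate 1 on the x axis and replicate 2 on the y axis, for 38 nuclear-encoded subunits (circles, coloured by place in the complex) and the 7 mitochondrially encoded subunits (triangles); the dashed line marks equal values. Most nuclear subunits lie below the line, and all 7 triangles lie above it.

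The subunits shifted together between replicates of the same group. GD-07 replicate 2 was below replicate 1 in 31 of the 39, where this held for 40.7% of all genes, and the median gap was -0.17 on the log2 scale. Control replicate 2 was above replicate 1 in 32 of the 39, against 29.5% of all genes, with a median gap of 0.15. Both gaps were wider than the median difference between the groups (0.08). In GD-07 replicate 1, 29 of the 39 lay above both controls (34.0% of all genes), and in GD-07 replicate 2 it was 15 (41.2% of all genes), with 17 below both (41.1%). Nuclear subunits of complexes II to V were counted in the same way, without a test of the difference: 31 of 38 were lower in GD-07 replicate 2 than in replicate 1, and 32 of 38 higher in control replicate 2 than in replicate 1. Their median log2 fold change was -0.01, none passed, 9 of 38 had GD-07 above both controls (25.3% of all genes), and 11 of 38 had it below (30.5% of all genes).

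Over all genes tested, the gaps between replicates varied with transcript length. The median length of the protein-coding transcripts annotated for a member was under 1000 bases for 29 of the 39. Over all tested genes in that class (2937), GD-07 replicate 2 differed from replicate 1 by a median of -0.01 on the log2 scale, whereas in genes with a median of 4000 bases and over (1566) it was higher by 0.23. Control replicate 2 differed from replicate 1 by -0.04 in the shortest class and by -0.24 in the longest. The subunits' own median gaps were -0.17 between the GD-07 replicates and 0.15 between the control replicates. The difference between the groups varied less with length, from -0.01 in the shortest class to -0.05 from 2000 to under 4000 bases. The part of transcript length in the values of the subunits was not tested.

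**Figure D4:**
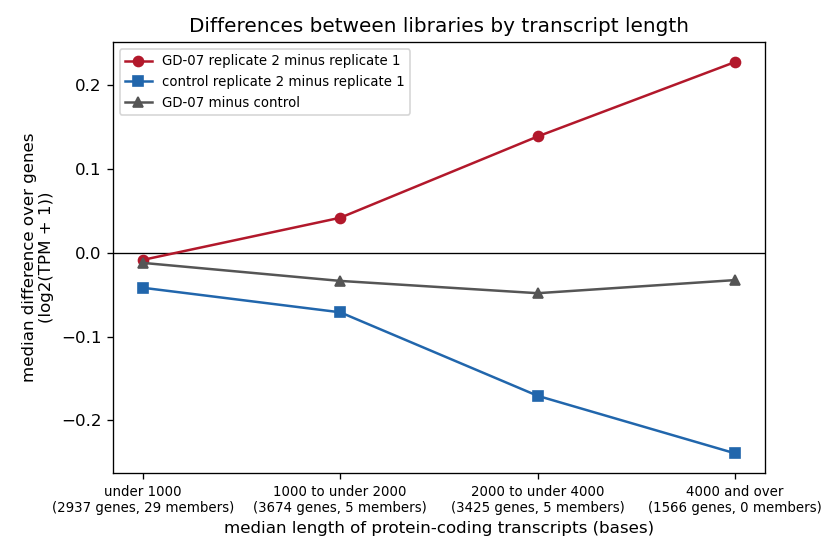
Median difference on log2(TPM + 1) over tested genes in 4 classes of annotated transcript length, between the GD-07 replicates (red), between the control replicates (blue) and between the groups (grey). The replicate lines part as length grows, to 0.23 and -0.24 in the longest class, while the group line stays between -0.05 and -0.01.

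The mitochondrially encoded subunits of the same complex varied in the opposite sense. Their summed TPM was 12808 and 12423 in the controls and 7528 and 18843 with GD-07, so the GD-07 libraries lay on either side of the controls (two-sided exact permutation p = 1). Set against the sum of the 39 nuclear genes, the ratio was 1.27 and 1.08 in the controls and 0.59 and 1.69 with GD-07. The library with the highest nuclear sum, GD-07 replicate 1, had the lowest mitochondrial sum. MT-ND6 was the most abundant of the 7 in each library. It was at 4234 and 4487 TPM in control cells and 2597 and 5503 TPM with GD-07. MT-ND1, in the membrane domain next to the ubiquinone site, was at 1063 and 993 TPM in control cells and 533 and 2098 TPM with GD-07. MT-ND5, the proton-pumping subunit at the far end of the membrane arm, was at 1683 and 1665 TPM against 781 and 1569 TPM. It had the 1 pair of groups that did not overlap, with GD-07 below both controls (30.5% of all genes). In each of MT-ND1, MT-ND2, MT-ND3, MT-ND4, MT-ND4L, MT-ND5 and MT-ND6, GD-07 replicate 1 was the lowest library. Over all genes, it lay below both controls in 46.3%. GD-07 replicate 2 was above both controls in 6 of the 7 (41.2% of all genes). None passed, with log2 fold changes from -0.60 to 0.56. Without GD-07 replicate 2, the log2 ratio of GD-07 to control for the mitochondrial sums was -0.74, and without GD-07 replicate 1 it was 0.58. TPM is scaled within each library, so the share of mitochondrially encoded transcripts in GD-07 replicate 2 bears on the other values there. How far it does was not tested. With TPM rescaled without mitochondrially encoded transcripts and the most abundant entry, the median log2 fold change of the 39 nuclear genes was 0.11. That of all genes tested moved from -0.04 to -0.005, and none of the 39 passed.

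**Figure D5:**
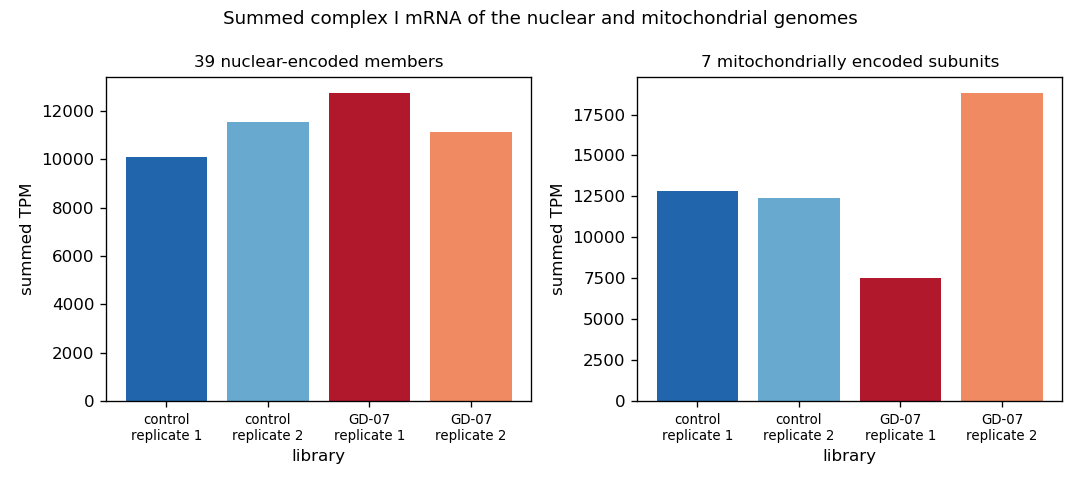
Summed TPM of the 39 nuclear-encoded genes (left) and of the 7 mitochondrially encoded subunits (right) in each library; bars start at 0 and have no error because each is 1 library. Nuclear sums run from 10102 to 12767, mitochondrial sums from 7528 to 18843, and GD-07 replicate 1 is the highest on the left and the lowest on the right.

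Assembly factors, which build the complex and then leave it, were examined as a list of 21 symbols, of which 18 were matched and tested. ECSIT, a member of the assembly complex for the proximal membrane arm, was at 46.2 and 45.1 TPM in control cells and fell to 29.98 and 19.8 TPM with GD-07 (log2 fold change -0.88 ± 0.20, limma adjusted p = 0.0431). None passed as higher, and 17 did not pass. That is 1 of 18, where 3.19% of all genes were called lower. Across the list, 9 had both GD-07 libraries below both controls (30.5% of all genes) and 3 had both above (25.3% of all genes), and the median log2 fold change was -0.09. NDUFAF2 was at 154 and 165 TPM against 120.4 and 110.2 TPM (limma adjusted p = 0.0848), and NDUFAF3 at 226 and 236 TPM against 169.5 and 171 TPM (limma adjusted p = 0.0927). The call of ECSIT ended without control replicate 1 (limma adjusted p = 0.0551), under median-ratio, quantile and mitochondria-free scaling (0.0597, 0.0732 and 0.0556), without limma's trend (0.0726) and with no filter on low values (0.244). In the fit without GD-07 replicate 1, 5 of the list were lower, as were 10.3% of all genes.

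A list of 9 regulators of respiratory chain genes was chosen with earlier results of these data known. Of the 9, 8 were tested and 8 had negative log2 fold changes, where 46.2% of all genes were above 0. Of these, 1 passed, as lower, where 3.19% of all genes did. ESRRA, a nuclear receptor that activates respiratory genes, fell from 27.2 and 29.1 to 17.4 and 17.1 TPM (-0.68 ± 0.16, limma adjusted p = 0.0465). This call ended without control replicate 1 (limma adjusted p = 0.173), control replicate 2 (0.203) or GD-07 replicate 2 (0.0509). It also ended with a pseudocount of 5 TPM (0.0509), under quantile (0.056) and mitochondria-free scaling (0.0742), without limma's trend (0.0701), and with no filter on low values (0.219). The other 7 did not pass. YY1, a zinc finger factor, was at 69.0 and 54.0 TPM in control cells and 37.5 and 40.3 TPM with GD-07 (limma adjusted p = 0.0581). PPRC1, a coactivator of the PGC-1 family, was at 21.7 and 18.9 TPM against 11.9 and 14.2 TPM (limma adjusted p = 0.0842), and NRF1 at 10.6 and 9.72 TPM against 8.28 and 7.24 TPM. PPARGC1A was below 1 TPM in every library and was not tested.

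Promoter windows were read for these genes because GD-07 is described as acting on MYC, which binds the E-box CACGTG, and because NRF1, ETS factors such as GABPA, and YY1 are known regulators of respiratory genes. RefSeq windows on GRCh38.p14, from 250 bases before to 50 after each start, were matched by symbol for 32 of the 39 members and oriented along the gene. Those not matched included NDUFA4, NDUFA4L2, NDUFB5, NDUFB9, NDUFC2 and NDUFS5. CACGTG, its own reverse complement, was found in 3 of the 32 (9.38%), against 8.77% of 27305 genes with a window. The 3 are NDUFA7, NDUFA11 and NDUFS7, whose log2 fold changes were -0.23, -0.06 and 0.01. The NRF1 motif GCATGCGC, searched on both strands, was found in 6 (18.8%, against 3.68% of all), NDUFA5, NDUFA6, NDUFA8, NDUFB4, NDUFS6 and NDUFS7. This count depends on the form of the motif: a longer form, in which it overlaps its own reverse complement, was found in 2 (6.25%, against 1.52% of all), NDUFA8 and NDUFB4. The ETS motif CCGGAAG, searched on both strands, was found in 5 (15.6%, against 12.2%), NDUFA1, NDUFA13, NDUFB7, NDUFS1 and NDUFS3. The YY1 motif AAGATGGC, searched on both strands, was found in 7 (21.9%, against 3.52%), NDUFA3, NDUFA6, NDUFA7, NDUFA9, NDUFB8, NDUFS4 and NDUFS7. None of the YY1 matches lay wholly before the start, and no matches of different motifs overlapped. The YY1 motif contains ATG, the letters of a start codon. Whether its matches are start codons was not tested, so its share does not separate promoter sites from coding starts. The 27305 genes were not filtered by type or level, whereas all members are protein-coding and were tested. The shares thus compare unlike sets. A match is a string of letters and does not show binding.

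The stretches around the 3 E-boxes, the NRF1 match of NDUFB4, the ETS matches of NDUFA1 and NDUFB7 and the YY1 matches of NDUFA9 and NDUFS7 are given along the gene's strand, with the motif in capitals. They are shown because they place the motif of MYC and those of the other regulators beside members whose values are described above. Distances are counted from the RefSeq start of the window. The E-box starts 120 bases before the start of NDUFA7 (chr19:8321478-8321507, minus strand), 132 before that of NDUFA11 (chr19:5903872-5903967, minus strand) and 187 before that of NDUFS7 (chr19:1383708-1383737, plus strand). The others lie at chr3:120596132-120596229 (NDUFB4, plus strand), chrX:119871774-119871802 (NDUFA1, plus strand), chr19:14572073-14572101 (NDUFB7, minus strand), chr12:4649113-4649142 (NDUFA9, plus strand) and chr19:1383913-1383942 (NDUFS7, plus strand).
NDUFA7 E-box: gcggagaggagtCACGTGcttcggggagag
NDUFA11 E-box: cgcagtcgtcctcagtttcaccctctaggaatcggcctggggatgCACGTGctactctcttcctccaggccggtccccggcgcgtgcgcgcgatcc
NDUFS7 E-box: acccgcggccccCACGTGcgcactccgatg
NDUFB4 NRF1 motif: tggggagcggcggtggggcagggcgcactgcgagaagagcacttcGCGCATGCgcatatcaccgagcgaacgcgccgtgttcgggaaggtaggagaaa
NDUFA1 ETS motif: ttccgtcgcttCTTCCGGagccgtacgtg
NDUFB7 ETS motif: gcctaaatgacCCGGAAGctgtgtctgac
NDUFA9 YY1 motif: gattgtgggaaAAGATGGCggctgccgcac
NDUFS7 YY1 motif: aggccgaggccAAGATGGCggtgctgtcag

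In NDUFA1 the ETS motif reads in reverse, as CTTCCGG, and in NDUFB4 the NRF1 motif overlaps its own reverse complement, of which the first is in capitals. The 5 members with the ETS motif had log2 fold changes of 0.57 (NDUFA1), 0.22 (NDUFS3), 0.08 (NDUFA13), -0.29 (NDUFB7) and -0.37 (NDUFS1). Whether the motif bears on these values was not tested. Reads of near-identical copies may have been divided among rows. Of 55 rows named as pseudogenes of these genes, NDUFV2P1 alone had a mean of at least 1 TPM (8.43 TPM), beside 231 to 298 TPM for NDUFV2. Exons of 13 members share bases with another annotated gene on the same strand and those of 18 with 1 on the opposite strand, while 16 share none.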

How the data were processed

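The authors deposited TPM per gene symbol for the 4 libraries. The submitters' processing notes list GRCh38 and the tools limma 3.60.4, kallisto and Subread. The sources used here give neither their roles and order nor how transcripts were combined per symbol. Per the labels' protocols, mRNA was enriched with oligo(dT) beads and read from both ends. Libraries were grouped by their labels. The 13063 of 35371 genes averaging 1 TPM or more were transformed as log2(TPM + 1) and compared over all 4 libraries with limma 3.58.1 in R 4.3.3 (eBayes with intensity trend, two-sided), with Benjamini-Hochberg adjustment over all genes tested. Fold changes on this scale understate those of low genes. Errors of fold changes are limma's standard errors. The procedure was tested on simulated data.

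The members, gene lists and tests were chosen with earlier results of these data known. Named genes are the 7 core subunits, the 5 highest and 5 lowest fold changes, the 3 most and 3 least abundant members, NDUFA4, NDUFA4L2, NDUFAB1, the mitochondrially encoded subunits, and assembly factors past the threshold. The other members, NDUFAF2, NDUFAF3, ESRRA, YY1, PPRC1 and NRF1 were named after their values were seen. The values of 1 member are not reported here, though counts, medians and sums include it. Gene models and transcript lengths are from GENCODE 29, and promoters from RefSeq (GRCh38.p14). The longer form of the NRF1 motif was searched first. Depth is unknown, so no counting intervals are given.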

Additional observations from a re-analysis of the deposited data

How the results depend on the processing

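Over all genes, 264 were higher and 417 lower. With no filter on low values the counts were 0 and 0, with mitochondria-free scaling 139 and 210, and without limma's trend 158 and 227. Leaving out 1 library gave 150 to 874 higher and 160 to 1343 lower. The cause was not tested, beyond the fact that unfiltered fits test more genes and fits without a library hold fewer samples.

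No subunit passed under either other pseudocount, with no filter, under median-ratio or mitochondria-free scaling, or without the trend. There were 3 higher with a minimum mean of 5 TPM, 2 under quantile normalization, and 0 to 7 higher and 0 to 3 lower when 1 library was left out. With the replicate number as a block 1 was higher, where 2.45% of all genes were, and ESRRA no longer passed (limma adjusted p = 0.0749). The labels do not pair the libraries, and same-numbered deviations correlated at -0.28 across genes. Assembly factors lower were 0 with no filter, under all 3 scalings and without the trend, and 0 to 5 when 1 library was left out.

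When 1 library was left out, the subunit median of 0.08 ran from -0.047 to 0.21 and that of the N module from -0.11 to 0.016, which was 0.015 under quantile normalization. That of the Q module ran from -0.25 to 0.17. The log2 ratio of GD-07 to control for the mitochondrial sums ran from -0.74 to 0.58. Several fold changes changed sign. Under quantile normalization NDUFV1 was 0.047, NDUFS8 0.0070 and NDUFAB1 0.065. NDUFAB1 was 0.0074 under both median-ratio and mitochondria-free scaling. When 1 library was left out, NDUFV1 ran from -0.33 to 0.25, NDUFS7 from -0.22 to 0.24 and NDUFS8 from -0.28 to 0.11. NDUFB7 ran from -0.74 to 0.16, NDUFA4 from -0.67 to 0.21 and NDUFA13 from -0.14 to 0.30. NDUFS5 ran from -0.15 to 0.20, NDUFA3 from -0.029 to 0.19 and NDUFAB1 from -0.16 to 0.11. MT-ND1 ran from -0.95 to 1.03, MT-ND2 from -1.16 to 0.73 and MT-ND3 from -0.059 to 1.18. MT-ND4 ran from -0.94 to 0.83, MT-ND4L from -0.50 to 0.24 and MT-ND6 from -0.75 to 0.34. Depth is unknown, so how it limits these values could not be given.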
